A study of Homo sapiens with 16 samples.

Results

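The tumour suppressor p53 is a transcription factor that is kept low by MDM2 and accumulates after DNA damage and other stresses. It then binds paired half-sites in DNA and raises genes for cell death, growth arrest, DNA repair, metabolism and its own shut-off, and many of these genes also answer to other transcription factors. LNCaP, a human prostate cancer cell line that depends on androgen, carries a functional p53. The genes described here are 33 direct p53 targets, chosen by name, out of 60676 gene identifiers in each count file; all 33 were found, and CDKN1A and MDM2 are not among them.

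Their RNA was measured in 4 groups of 4 libraries each. RB-p53 double knockout LNCaP cells (DKO), made with CRISPR-Cas9, were given the androgen receptor blocker enzalutamide (EZ; 50 µM, 6 days; DKO EZ) or an equal volume of its solvent DMSO (DKO DMSO). Wild-type LNCaP cells (WT) were given the same drug (WT EZ) or solvent (WT DMSO). All 4 groups grew in RPMI-1640 with serum. Because DKO cells lack RB as well as p53, the loss of p53 and the loss of RB cannot be told apart in any comparison of DKO with WT, and whether the DKO cells are 1 clone or a pool is not given in the sources used here. The comparisons ask which of the 33 genes are lower without RB and p53, and which the drug raises in cells without p53.

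Levels are CPM, the gene's counts divided by a library size that was adjusted with edgeR's TMM factors and scaled to 1e+06, and errors are SDs over 4 libraries unless named. Fold changes are log2 values with a standard error (SE) from edgeR's quasi-likelihood test, with p-values adjusted by Benjamini-Hochberg over all 21810 genes tested and a threshold of 0.05. In bulk RNA, fewer cells with a transcript and less of it per cell cannot be told apart. Library totals ran between 11823438 and 47678648 counts. The summed level of 8 luminal prostate markers was 2448 to 3385 CPM in DKO EZ, 3865 to 4736 CPM in WT EZ, 2365 to 3311 CPM in DKO DMSO and 3164 to 4650.5 CPM in WT DMSO, and none of the 8 was at 0. Basal (3 markers) and leukocyte (3 markers) sums stayed at or below 1.47 and 0.255 CPM, with CD3E at 0 in all 16 libraries. The fibroblast sum (3 markers) was 35.5 to 46.1 CPM in DKO EZ, 15.1 to 21.4 CPM in WT EZ, 26.2 to 43.7 CPM in DKO DMSO and 16.5 to 21.7 CPM in WT DMSO; most of it was COL1A1, COL1A2 stayed near 0, and its part in the results was not tested. The endothelial sum (3 markers), mostly VWF, was 2.81 to 4.81 CPM in DKO EZ, 3.32 to 6.76 CPM in WT EZ, 5.16 to 10.8 CPM in DKO DMSO and 6.31 to 17.3 CPM in WT DMSO.

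The genotype labels were checked with RB1. RB1 had 9.94, 13.4, 10.7 and 12.8 CPM in DKO EZ against 95.6, 122, 114 and 115 CPM in WT EZ. Its DMSO values were 11.1, 9.04, 10.4 and 11.7 CPM in DKO cells against 112, 118, 101 and 128 CPM in WT cells. The groups did not overlap, and the log2 fold changes were -3.25 ± 0.13 with EZ and -3.44 ± 0.13 with DMSO. RB1 transcripts remained countable in DKO cells, and these counts hold no measure of the protein.

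Of the 33 genes, 32 passed the filter on low counts, and the same 32 passed within the DKO libraries alone and within the WT libraries alone. The exception was EDA2R, a receptor of the tumour necrosis factor family, which had between 0 and 7 counts in a library and was not tested. In DKO against WT cells, 19 of the 32 were lower and 0 were higher with DMSO, where 9.7% of all tested genes were lower and 8.91% higher. With EZ, 20 were lower and 0 higher, beside 11.4% lower and 9.29% higher among all tested genes. The median log2 fold change over the 32 was -0.85 with EZ and -0.76 with DMSO, against -0.01 and -0.06 over all tested genes. Libraries of DKO lay wholly below those of WT for 23 genes with EZ and 20 with DMSO, which held for 13.4% and 10.9% of all tested genes. For 18 genes the lower call was made under both treatments, beside 7.09% of all tested genes, and 0 were higher under both, beside 6.43%. Those 18 were split by function into 8 of 13 cell death genes, 1 of 5 genes for DNA repair and nucleotide supply, 3 of 5 for growth arrest, 3 of 6 for redox and mitochondria, and 3 of 4 others. In 10 libraries RN7SL1, an abundant small cytoplasmic RNA, took under 0.2% of counts. Within these, fewer samples remained and 12 genes were called lower with EZ, 11 with DMSO and 9 in both. All tested genes gave 4.02% lower with EZ and 3.93% with DMSO, and the share lower in both was not computed. Genes that lost the call there also had smaller fold changes than with all libraries, such as BTG2 (-0.52) and RRM2B (-0.38) with EZ.

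**Figure D1:**
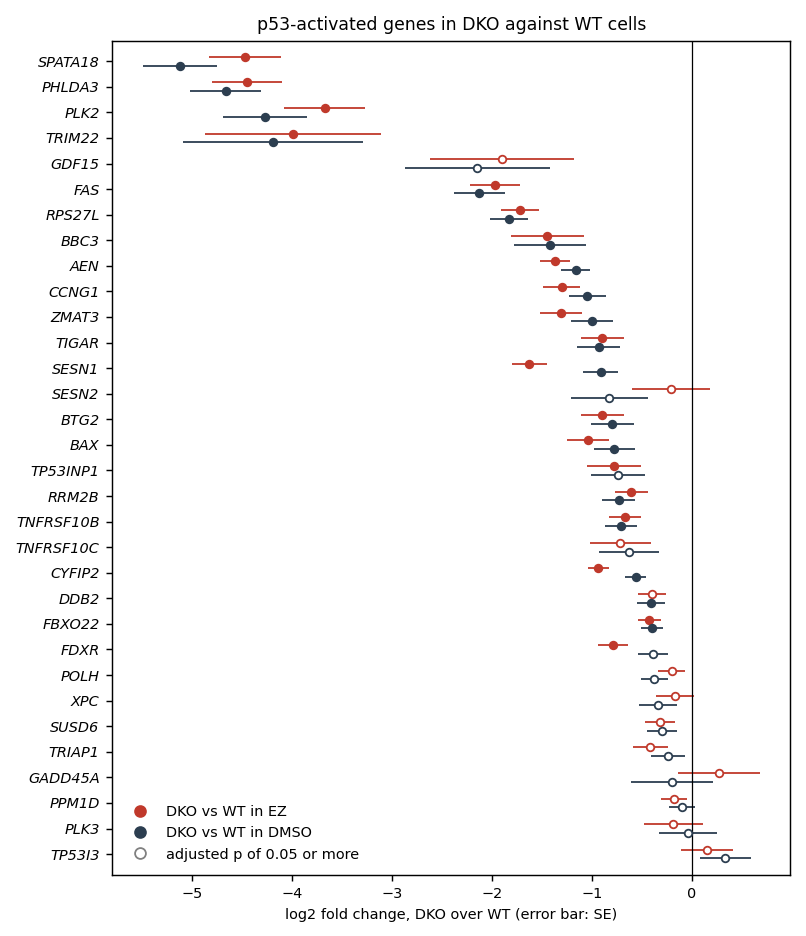
Log2 fold change of DKO over WT (x axis) for the 32 tested p53-activated genes (y axis, in order of the change with DMSO), with EZ in red above DMSO in dark blue, bars giving the SE, and open points an adjusted p of 0.05 or more. SPATA18, PHLDA3, PLK2 and TRIM22 stand apart at the left with DMSO values between -5.11 and -4.19, and TP53I3 lies right of 0 under both treatments.

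In WT DMSO cells the 32 tested genes spanned a wide range of levels per kilobase of exon, with CCNG1 (198 CPM per kb), TP53INP1 (129) and GDF15 (118) high and BBC3 (1.09), TNFRSF10C (1.11) and FAS (1.78) low. How much RNA remained without RB and p53 also ranged widely among the 18. In DMSO, 4 of them kept less than 10% of the mean WT level, 6 kept 10 to 50% and 8 kept 50% or more. SPATA18, which encodes a protein of mitochondrial quality control (chr4:52051331-52097292, plus strand, GRCh38), kept the least, 2.90% of the WT level in DMSO and 4.78% in EZ. It had 0.778, 0.868, 0.443 and 0.482 CPM in DKO EZ, against 22.1, 10.4, 10.2 and 11.1 CPM in WT EZ. With DMSO the values were 0.543, 0.127, 0.433 and 0.296 CPM in DKO cells, against 13.6, 11.5, 9.87 and 13.2 CPM in WT cells. The DKO values rest on 11 to 23 counts with EZ and 3 to 13 with DMSO, and no DKO library came near a WT library. The log2 fold change was -4.47 ± 0.36 with EZ (adjusted p = 1.31e-07) and -5.11 ± 0.37 with DMSO (adjusted p = 4.00e-08).

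PHLDA3 (chr1:201464383-201469237, minus strand) encodes a competitive inhibitor of AKT at the membrane. Its levels were 2.63, 1.26, 0.974 and 1.20 CPM in DKO EZ, against 49.5, 25.0, 26.6 and 27.3 CPM in WT EZ. With DMSO they were 1.58, 0.722, 1.08 and 0.637 CPM in DKO cells, against 23.1, 22.4, 21.0 and 32.7 CPM in WT cells. WT EZ replicate 1 was the highest library, and the groups were far apart without it. Log2 fold changes were -4.45 ± 0.35 with EZ (adjusted p = 1.34e-07) and -4.66 ± 0.36 with DMSO (adjusted p = 9.41e-08). PLK2, a polo-like kinase of the stress response (chr5:58453982-58460260, minus strand), had 13.5, 5.36, 5.96 and 3.86 CPM in DKO EZ and 48.0, 98.8, 98.8 and 113 CPM in WT EZ. It had 6.32, 3.14, 4.58 and 2.43 CPM in DKO DMSO and 87.8, 75.8, 94.0 and 55.7 CPM in WT DMSO. DKO EZ replicate 1 was the highest DKO library and WT EZ replicate 1 the lowest WT library, and they did not overlap. PLK2 differed by -3.67 ± 0.41 with EZ (adjusted p = 1.34e-05) and -4.27 ± 0.42 with DMSO (adjusted p = 3.95e-06).

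TRIM22, an antiviral ring-finger protein (chr11:5689689-5737089, plus strand), was the most variable of these genes within WT cells. Its level was 2.87, 1.18, 0.856 and 0.881 CPM in DKO EZ, against 3.60, 26.8, 19.2 and 38.3 CPM in WT EZ. With DMSO it was 1.53, 0.509, 0.830 and 0.637 CPM in DKO cells, against 2.87, 6.79, 10.2 and 42.7 CPM in WT cells. Replicate 1 of WT held the lowest WT value under both treatments and replicate 4 the highest. The log2 fold change was -3.99 ± 0.88 with EZ (adjusted p = 0.00505) and -4.19 ± 0.90 with DMSO (adjusted p = 0.00453). Without replicate 4 of both DMSO groups it became -2.71 with DMSO (adjusted p = 0.0465).

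**Figure D2:**
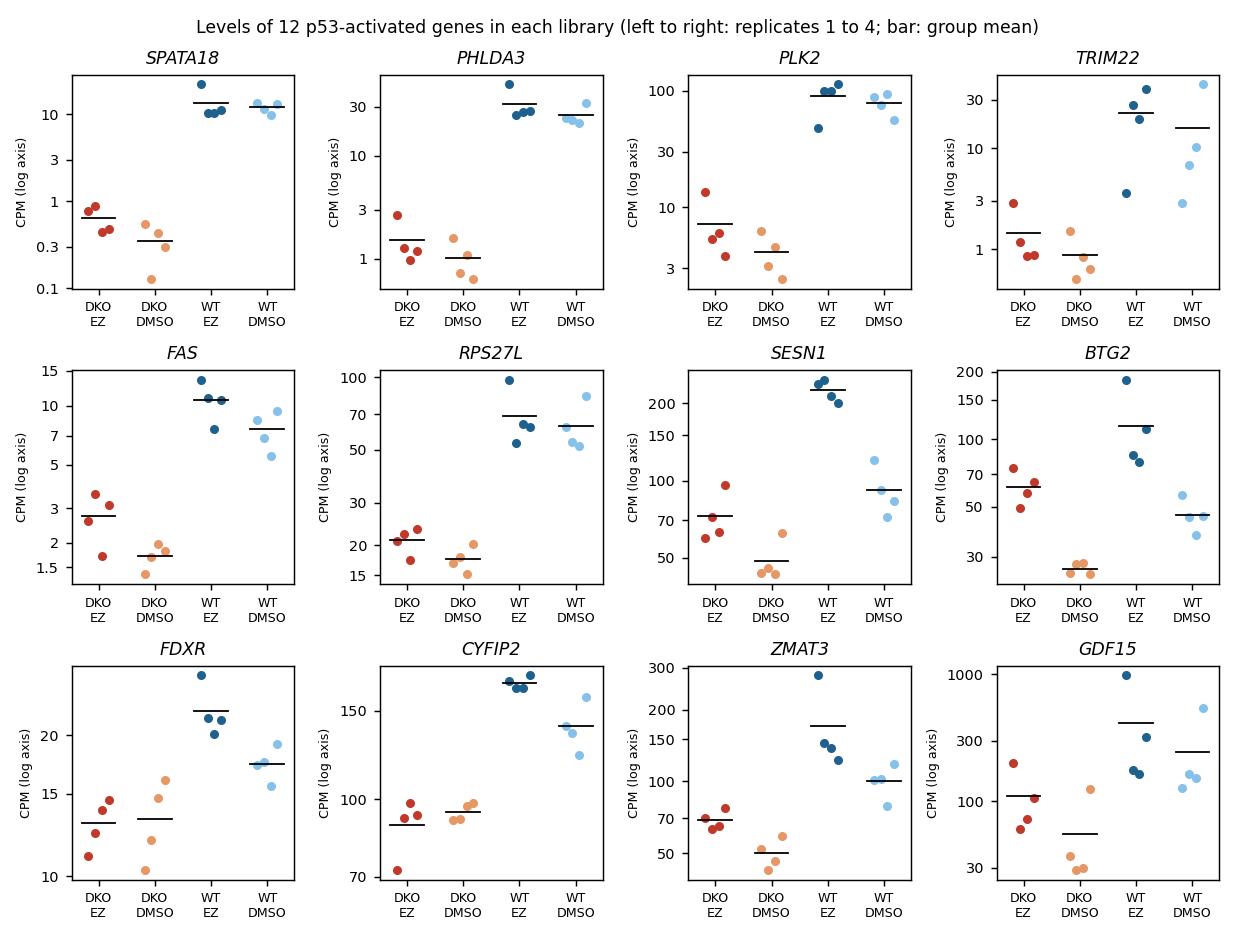
CPM (log axis) of 12 p53-activated genes in each of the 16 libraries, in groups DKO EZ, DKO DMSO, WT EZ and WT DMSO from left to right, points in replicate order and a bar at the group mean. SPATA18 lies below 1 CPM in every DKO library and at or above 9.87 CPM in every WT library, while FDXR, CYFIP2 and GDF15 differ by less or overlap in part.

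Among the cell death genes, the death receptor FAS (chr10:88990582-89015785, plus strand) was lowest relative to WT after PHLDA3. FAS had 2.57, 3.55, 1.71 and 3.12 CPM in DKO EZ, against 13.5, 10.9, 7.57 and 10.7 CPM in WT EZ. In DMSO the levels were 1.38, 1.70, 1.98 and 1.82 CPM in DKO cells and 8.46, 6.85, 5.51 and 9.38 CPM in WT cells. All 8 DKO values lay below all 8 WT values, with log2 fold changes of -1.97 ± 0.25 with EZ (adjusted p = 2.41e-05) and -2.13 ± 0.25 with DMSO (adjusted p = 1.23e-05). The other death receptor that was called, TNFRSF10B (the TRAIL receptor DR5), was lower by a smaller margin, at -0.67 ± 0.16 with EZ and -0.71 ± 0.16 with DMSO, and its call with EZ was lost without DKO EZ replicate 2 (adjusted p = 0.0506). Its decoy relative TNFRSF10C was not called under either treatment (-0.72 ± 0.31 with EZ, adjusted p = 0.11; -0.63 ± 0.30 with DMSO, adjusted p = 0.162). The mitochondrial killers BBC3, which encodes the BH3-only protein PUMA, and BAX, which permeabilises the outer membrane, were both lower. BBC3 differed by -1.45 ± 0.36 with EZ and -1.42 ± 0.36 with DMSO, and BAX by -1.04 ± 0.21 and -0.78 ± 0.21. AEN, a nuclease of apoptosis, differed by -1.37 ± 0.15 with EZ and -1.16 ± 0.15 with DMSO, and ZMAT3, an RNA-binding zinc-finger protein, by -1.31 ± 0.21 and -1.0 ± 0.21. The call for BAX with DMSO was lost in 6 of 27 alternative analyses, among them without WT DMSO replicate 1 and without DKO DMSO replicate 1, 2 or 4 (adjusted p between 0.0514 and 0.0726).

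CYFIP2, a subunit of the actin-regulating WAVE complex (chr5:157266079-157395595, plus strand), was among the least reduced genes called with DMSO. It had 72.3, 91.5, 98.1 and 93.1 CPM in DKO EZ, against 171, 166, 166 and 176 CPM in WT EZ. With DMSO its level was 90.7, 91.2, 97.0 and 98.4 CPM in DKO cells, against 139.9, 136, 123 and 159.9 CPM in WT cells. The libraries were tight within groups and apart between genotypes, with log2 fold changes of -0.94 ± 0.10 with EZ (adjusted p = 6.79e-06) and -0.56 ± 0.10 with DMSO (adjusted p = 9.87e-04). TP53INP1, a stress protein of apoptosis and autophagy, passed only with EZ, at -0.78 ± 0.27 (adjusted p = 0.0496), and that call was lost in 21 of 27 alternatives. With DMSO it stood at -0.74 ± 0.27 (adjusted p = 0.0662). SUSD6, a membrane protein with growth-suppressing activity, and TP53I3, a quinone oxidoreductase, were not called. SUSD6 stood at -0.32 ± 0.15 with EZ and -0.30 ± 0.15 with DMSO. TP53I3 was the one tested gene above 0 under both treatments, at 0.15 ± 0.26 with EZ and 0.33 ± 0.26 with DMSO, and its groups overlapped.

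The repair genes had the medians nearest 0 of the functional groups, -0.21 with EZ and -0.38 with DMSO over 5 genes. RRM2B, the p53-inducible subunit of ribonucleotide reductase, was lower under both treatments (-0.61 ± 0.16 with EZ and -0.73 ± 0.16 with DMSO). The call with EZ was lost in 5 of 27 alternatives, with adjusted p = 0.0745 without WT EZ replicate 1, 0.0555 without DKO EZ replicate 2 and 0.0829 without DKO EZ replicate 3. DDB2, a damage sensor of nucleotide excision repair (chr11:47214465-47239240, plus strand), had 15.9, 15.5, 18.6 and 16.3 CPM in DKO EZ and 27.2, 19.8, 19.9 and 20.8 CPM in WT EZ. In DMSO it had 16.2, 19.4, 20.7 and 18.4 CPM in DKO cells and 29.1, 24.8, 26.1 and 19.7 CPM in WT cells. The genotypes were apart with EZ, where it narrowly missed the threshold (-0.40 ± 0.14, adjusted p = 0.0531). They overlapped with DMSO, where it passed (-0.41 ± 0.14, adjusted p = 0.048), a call lost in 23 of 27 alternatives. XPC, the partner sensor of that pathway, POLH, a translesion polymerase, and GADD45A, a growth arrest and repair factor, were not called. Their log2 fold changes with EZ were -0.17 ± 0.19, -0.21 ± 0.14 and 0.26 ± 0.41, and with DMSO -0.35 ± 0.19, -0.38 ± 0.14 and -0.20 ± 0.41.

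Of the growth arrest genes, CCNG1 (cyclin G1) was lower at -1.30 ± 0.19 with EZ and -1.05 ± 0.19 with DMSO, and BTG2 is described with the drug response. Neither PLK3, another polo-like kinase, nor PPM1D, a phosphatase that acts on p53 itself, was called. PLK3 stood at -0.19 ± 0.29 with EZ and -0.04 ± 0.29 with DMSO, and PPM1D at -0.18 ± 0.13 and -0.10 ± 0.13. Among metabolic genes, TIGAR, which lowers glycolysis, was lower at -0.90 ± 0.21 with EZ and -0.93 ± 0.22 with DMSO. FDXR, a mitochondrial electron donor enzyme, passed with EZ only, at -0.79 ± 0.15 (adjusted p = 0.00109), where the genotypes were apart. With DMSO it stood at -0.39 ± 0.15 (adjusted p = 0.0823), and the libraries overlapped. SESN2, a sestrin that restrains mTORC1, and TRIAP1, a mitochondrial survival factor, were not called; SESN2 stood at -0.21 ± 0.39 with EZ and -0.83 ± 0.39 with DMSO, and TRIAP1 at -0.42 ± 0.17 and -0.24 ± 0.17.

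RPS27L, a ribosomal protein paralog (chr15:63125872-63158021, minus strand), had 20.9, 22.2, 17.4 and 23.4 CPM in DKO EZ, against 97.5, 53.2, 63.8 and 62.2 CPM in WT EZ. With DMSO it had 16.9, 17.9, 15.1 and 20.3 CPM in DKO cells, against 62.3, 53.5, 51.5 and 83.3 CPM in WT cells. No DKO library reached the lowest WT library, and the log2 fold changes were -1.72 ± 0.19 with EZ (adjusted p = 5.32e-06) and -1.83 ± 0.19 with DMSO (adjusted p = 2.79e-06). FBXO22, a ubiquitin ligase subunit (chr15:75903859-75942510, plus strand), showed the smallest difference called under both treatments. Its levels were 56.2, 49.3, 50.1 and 57.9 CPM in DKO EZ and 84.9, 68.0, 69.7 and 64.6 CPM in WT EZ. With DMSO they were 49.8, 44.9, 49.8 and 57.3 CPM in DKO cells and 65.4, 66.7, 59.0 and 75.5 CPM in WT cells. The libraries did not overlap under either treatment, at -0.43 ± 0.11 with EZ (adjusted p = 0.0124) and -0.40 ± 0.11 with DMSO (adjusted p = 0.0191), but the calls were lost in 7 and 14 of 27 alternatives. GDF15, a secreted growth factor that many stresses raise, was not called although its fold change was large. It had 199, 61.0, 72.3 and 107 CPM in DKO EZ and 978, 177, 165 and 319 CPM in WT EZ. With DMSO it had 37.4, 28.8, 30.1 and 125 CPM in DKO cells and 126, 165, 153 and 537 CPM in WT cells. DKO DMSO replicate 4, WT EZ replicate 1 and WT DMSO replicate 4 were far above their groups. The genotypes overlapped with EZ, while with DMSO every DKO library lay below every WT library, by a narrow margin. The log2 fold changes were -1.90 ± 0.72 with EZ (adjusted p = 0.0802) and -2.14 ± 0.73 with DMSO (adjusted p = 0.0558). GDF15 was called lower in some alternatives and not in others. It passed with DESeq2 (adjusted p = 0.0362 with EZ and 0.0159 with DMSO). Without DKO DMSO replicate 4 it passed with DMSO (adjusted p = 0.0237).

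Promoters were searched for the p53 half-site, since p53 binds such sites and these genes differ in how far they are reduced. RefSeq windows (GRCh38.p14, 300 bases, 250 before the start and 50 after it) were held for 25 of the 33 genes. An exact half-site of 10 bases occurred in 4 of the 25 windows (16.0%) and in 1786 of all 27305 promoters (6.5%). Its pattern of allowed bases, though not each sequence, reads alike on both strands. A pair with at most 2 mismatches and 0 to 13 bases between occurred in 2 of the 25 (8.0%) and in 802 of all promoters (2.9%). The 4 stretches are shown from the gene's own strand, with exact half-sites and the partners of pairs in capitals. AEN (chr15:88621281-88621350, plus strand) and FDXR (chr17:74872971-74873050, minus strand) hold pairs, each of 1 exact half-site and a partner with 2 mismatches. In FDXR the mismatches fall on the middle 2 bases of the partner. PLK2 (chr5:58460184-58460243, minus strand) and RPS27L (chr15:63157502-63157561, minus strand) hold single exact half-sites.
AEN: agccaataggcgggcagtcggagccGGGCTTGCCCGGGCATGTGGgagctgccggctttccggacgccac
FDXR: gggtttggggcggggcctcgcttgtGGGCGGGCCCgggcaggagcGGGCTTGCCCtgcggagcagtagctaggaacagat
PLK2: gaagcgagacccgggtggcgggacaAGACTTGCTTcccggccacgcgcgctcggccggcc
RPS27L: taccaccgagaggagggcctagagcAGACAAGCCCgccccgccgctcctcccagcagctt
Of these genes, AEN, PLK2 and RPS27L were lower in DKO under both treatments and FDXR with EZ only. Genes lower under both treatments also included SPATA18, FAS, BBC3, ZMAT3, CCNG1 and SESN1, whose windows held 0 exact half-sites and no pair. PHLDA3 and TRIM22 had no window. A link between a match and the reduction was not tested. A match describes letters only, and the data hold no measure of binding.

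The drug moved few of the 33 genes past the threshold in either genotype. In DKO cells, 1 of the 32 tested genes was higher with EZ than with DMSO and 0 were lower, where 1.03% of all tested genes were higher and 0.445% lower (1.48% either way). In WT cells, 2 were higher and 0 lower, beside 2.25% higher and 1.07% lower among all tested genes (3.32% either way). The median log2 fold change of the 32 was 0.20 in each genotype, against 0.01 in DKO and -0.03 in WT over all tested genes. The change was above 0 in both genotypes for 21 genes, above 0 in WT alone for 4 and below 0 in both for 7. Same-numbered EZ and DMSO libraries of a genotype deviated together, and with the replicate number as a block within each genotype 2 genes were higher in DKO (4.63% of all tested genes were higher) and 5 in WT (7.67%). With the block 0 genes were lower in DKO (3.12% of all tested genes) and 0 in WT (4.44%).

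BTG2, an antiproliferative protein that recruits a deadenylase (chr1:203305491-203309602, plus strand), was the gene that the drug raised in DKO cells without the replicate block. With the block SESN1 passed in DKO as well (0.57, adjusted p = 0.00387). In DKO cells BTG2 had 74.8, 49.2, 57.5 and 64.9 CPM with EZ, against 25.3, 27.9, 28.1 and 25.0 CPM with DMSO. In WT cells it had 185, 85.4, 79.2 and 111 CPM with EZ, against 56.3, 44.9, 37.6 and 45.6 CPM with DMSO. Every EZ library was above every DMSO library of its genotype, and EZ was higher in 4 of 4 same-numbered pairs in each. BTG2 averaged 61.6 ± 10.9 CPM in DKO EZ against 26.6 ± 1.64 CPM in DKO DMSO, a log2 fold change of 1.21 ± 0.22 (adjusted p = 0.00985). Its WT means were 115 ± 48.3 CPM with EZ and 46.1 ± 7.70 CPM with DMSO, a log2 fold change of 1.32 ± 0.22 (adjusted p = 0.00287). The difference between the drug effects, DKO minus WT, was -0.10 ± 0.30 (unadjusted p = 0.736). The DKO call was lost without DKO DMSO replicate 2 (1.23, adjusted p = 0.0506), and in the 10 libraries of low RN7SL1 share (adjusted p = 0.0582). BTG2 was also lower in DKO than in WT cells, at -0.90 ± 0.21 with EZ (adjusted p = 0.00609) and -0.80 ± 0.22 with DMSO (adjusted p = 0.0151), the second lost in 6 of 27 alternatives, among them without WT DMSO replicate 1 and without any 1 of the DKO DMSO libraries (adjusted p between 0.0586 and 0.0747).

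SESN1, a sestrin that restrains mTORC1 (chr6:108986437-109094819, minus strand), was raised by the drug in WT cells and, with the replicate block, in DKO cells. In DKO cells it had 59.5, 72.0, 63.3 and 95.9 CPM with EZ, against 43.4, 45.7, 43.0 and 62.6 CPM with DMSO. In WT cells it had 237, 247, 213 and 201 CPM with EZ, against 120.0, 92.0, 71.9 and 83.3 CPM with DMSO. The WT groups were far apart, whereas DKO DMSO replicate 4 lay within the DKO EZ values. The log2 fold change was 0.58 ± 0.17 in DKO (adjusted p = 0.116) and 1.29 ± 0.18 in WT (adjusted p = 6.34e-04), and the WT call held in all 28 alternatives. By same-numbered pairs, the log2 ratio of EZ to DMSO was 0.45 to 0.66 in DKO and 0.98 to 1.57 in WT, above 0 in 4 of 4 pairs in each. With the replicate block, the DKO change was 0.57 and passed (adjusted p = 0.00387). DKO minus WT, the drug effects differed by -0.71 ± 0.24 (unadjusted p = 0.00963, adjusted p = 1), and with the block by -0.74 (adjusted p = 0.0489). No other of the 32 genes passed that test in either form, where 0% of all tested genes passed without the block and 0.124% were lower and 0.055% higher with it. Without the block 648 genes had an unadjusted p below 0.05, and DESeq2 called 10.

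**Figure D3:**
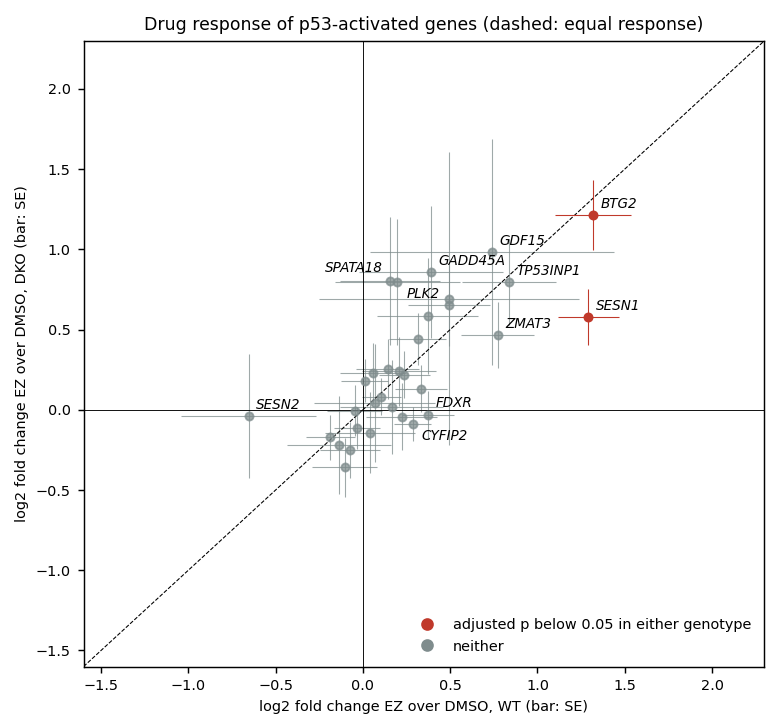
Log2 fold change of EZ over DMSO in DKO (y axis) against WT (x axis) for the 32 tested genes, with SE bars, a dashed line of equal response, and red for genes past the threshold in either genotype. BTG2 lies near the line at 1.32 in WT and 1.21 in DKO, while SESN1 lies below it at 1.29 and 0.58.

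Of the remaining genes, ZMAT3 came nearest the threshold. It had 70.4, 63.4, 65.0 and 77.2 CPM with EZ and 51.8, 42.5, 46.5 and 58.8 CPM with DMSO in DKO cells. In WT cells the values were 279, 145, 138 and 123 CPM with EZ and 101, 102, 79.1 and 118 CPM with DMSO. EZ libraries lay above DMSO libraries in both genotypes, at 0.47 ± 0.21 in DKO (adjusted p = 0.336) and 0.77 ± 0.21 in WT (adjusted p = 0.0503), and WT EZ replicate 1 was well above its group. ZMAT3 passed in WT in some alternatives and not in others. Among those where it passed were DESeq2 (adjusted p = 0.0203) and scaling by library totals (adjusted p = 0.0372). With the block ZMAT3 passed in WT (0.70, adjusted p = 0.0316), as did CYFIP2 (0.29, adjusted p = 0.0352) and FDXR (0.37, adjusted p = 0.0336). Without it those were 0.29 ± 0.10 and 0.37 ± 0.15 in WT and -0.09 ± 0.10 and -0.03 ± 0.15 in DKO. The drug effect on neither was shown to differ between genotypes (DKO minus WT -0.37 ± 0.15 for CYFIP2 and -0.40 ± 0.21 for FDXR, both with an adjusted p of 1).

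Other genes had drug values above 0 in both genotypes without passing. TP53INP1 stood at 0.80 ± 0.27 in DKO (adjusted p = 0.176) and 0.84 ± 0.27 in WT (adjusted p = 0.11), and GDF15 at 0.98 ± 0.71 and 0.74 ± 0.70. SPATA18 and PLK2 stood at 0.80 ± 0.40 and 0.80 ± 0.39 in DKO and at 0.16 ± 0.29 and 0.20 ± 0.36 in WT. In DKO cells, EZ was above DMSO in all 4 same-numbered pairs for 11 genes (18.8% of all tested genes), among them TP53INP1, ZMAT3, RRM2B, PLK2 and SPATA18. In WT cells that held for 7 genes (16.6% of all tested genes). EZ was below DMSO in all 4 pairs for 4 genes in DKO (17.1% of all tested genes) and 0 in WT (15.4%). EZ libraries stood wholly above DMSO libraries for 2 genes in DKO, BTG2 and ZMAT3, beside 5.2% of all tested genes, and for 5 in WT beside 5.78%. CCNG1 was the one gene with EZ libraries wholly below, in DKO, at -0.36 ± 0.18 (adjusted p = 0.427), beside 4.41% of all tested genes, and WT had 0 such genes, beside 3.81%. SESN2 stood at -0.04 ± 0.39 in DKO and -0.65 ± 0.39 in WT, and DMSO replicate 4 was its highest library in both genotypes.

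Single libraries stood apart from their groups. WT EZ replicate 1 was the highest of its group for 23 of the 32 tested genes (71.9%), against 29.3% of all tested genes. DMSO replicate 4 was highest for 20 genes in DKO (62.5%, against 37.4%) and for 23 in WT (71.9%, against 32.7%). Those libraries and DKO EZ replicate 1 also stood apart in other gene sets. The summed level of 20 E2F and mitosis genes was 721 CPM in DKO EZ replicate 1 and 418 CPM in WT EZ replicate 1. It was 1444 CPM in DKO DMSO replicate 4 and 438 CPM in WT DMSO replicate 4, in each case the lowest of the group. The sum of 20 targets of the stress factors ATF4 and CHOP was 6084 CPM in DKO DMSO replicate 4 and 8320 CPM in WT DMSO replicate 4, against 3379 to 3850 CPM in other DKO DMSO libraries and 4396 to 4845 CPM in other WT DMSO libraries. The part of these libraries in the comparisons was not tested beyond leaving out each, replicate 1 of both EZ groups, or replicate 4 of both DMSO groups. Without replicate 1 of both EZ groups, 3363 of all tested genes were called in DKO against WT with EZ, against 4508 with all libraries. RRM2B (adjusted p = 0.12), TP53INP1 (adjusted p = 0.159) and FBXO22 (adjusted p = 0.0772) then lost their lower call with EZ. Without replicate 4 of both DMSO groups, an alternative chosen after seeing the data, the drug raised 3 of the genes in DKO (BTG2, SESN1 and RRM2B), beside 3.02% of all tested genes, and 5 in WT, beside 4.4%. Calls over all tested genes thus rose as well in that setting, to 905 in DKO and 1332 in WT in either direction, against 322 and 724 with all libraries.

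**Figure D4:**
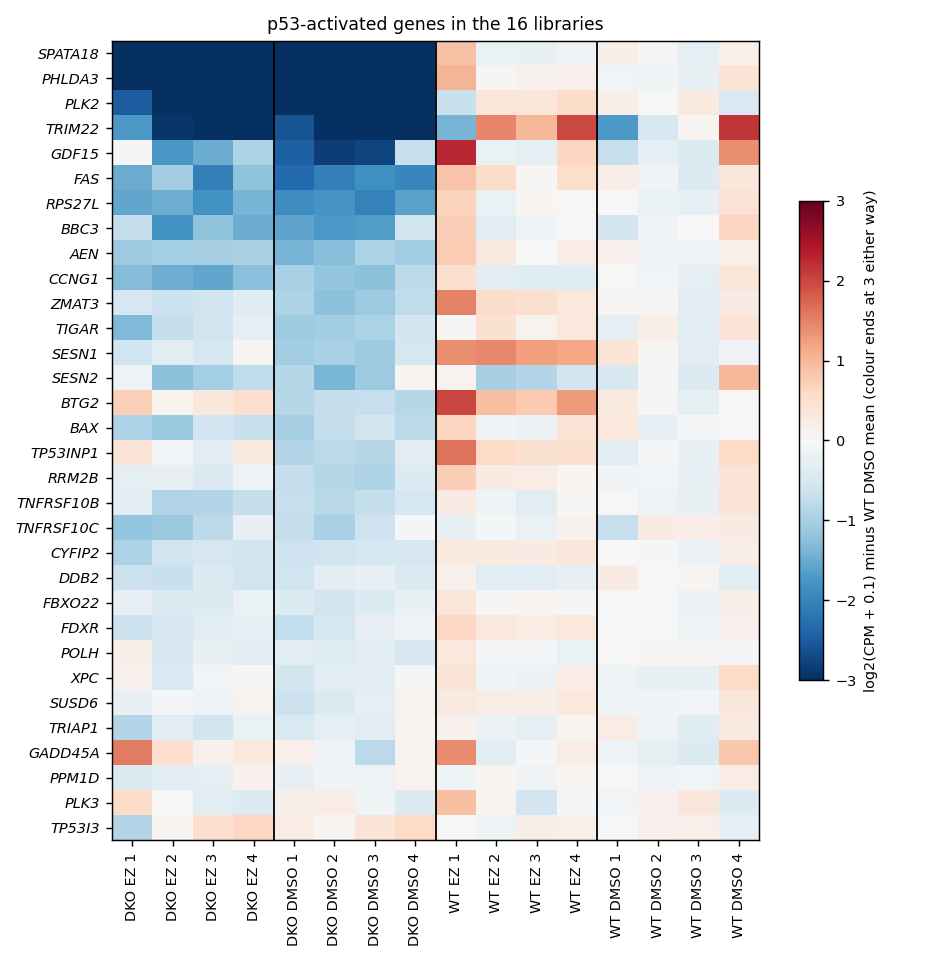
Log2(CPM + 0.1) of 32 p53-activated genes (y axis) minus the WT DMSO mean of the gene, in the 16 libraries (x axis), with blue below and red above that mean and the colour ending at 3 either way. The DKO libraries are blue for the upper genes, and WT EZ replicate 1 and WT DMSO replicate 4 are redder than the rest of their groups.

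Other genes of the pathway gave a background. Of 64 further tested p53-activated genes, 12 (18.8%) were lower and 7 (10.9%) higher in DKO than in WT with EZ. All tested genes gave 11.4% lower and 9.29% higher. With DMSO 8 (12.5%) were lower and 4 (6.25%) higher, beside 9.7% and 8.91% of all tested genes. The medians were -0.11 with EZ and -0.14 with DMSO. The lowest of those called with DMSO were the cell cycle inhibitor CDKN1A at -3.47 ± 0.59, the cytokine LIF at -2.31 ± 0.30 and the plexin PLXNB2 at -0.95 ± 0.16. The highest of the 4 called higher were the lipoxygenase ALOX5 at 2.27 ± 0.28, the growth factor TGFA at 1.07 ± 0.18 and the 14-3-3 protein SFN at 0.99 ± 0.34. Levels of ALOX5 and SFN were low. ALOX5 averaged 2.38 CPM in DKO DMSO and 0.479 CPM in WT DMSO, and SFN 0.885 and 0.445 CPM. The drug raised 1 of the 64 (1.56%) in DKO cells, ARHGEF3 at 0.79 ± 0.17 (adjusted p = 0.03), beside 1.03% of all tested genes. The medians of the 64 were 0.11 in DKO and 0.14 in WT. In WT the drug raised 3 (4.69%), beside 2.25% of all tested genes. These were ARHGEF3 at 0.72 ± 0.17, CROT, a peroxisomal acyltransferase, at 0.76 ± 0.18 and SERPINB5, the serpin maspin, at 0.51 ± 0.12. CDKN1A had 35.9, 15.5, 14.8 and 20.5 CPM in DKO EZ and 469, 108, 98.1 and 112 CPM in WT EZ, with WT EZ replicate 1 again highest. With DMSO it had 5.68, 5.65, 6.39 and 16.0 CPM in DKO cells and 94.9, 74.6, 64.5 and 144 CPM in WT cells.

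Among 22 tested regulators of p53, 5 (22.7%) were lower and 1 (4.55%) was higher in DKO with EZ. With DMSO 7 (31.8%) were lower and 1 (4.55%) higher. Over all tested genes, 11.4% were lower and 9.29% higher with EZ, and 9.7% and 8.91% with DMSO. The lowest of those called with DMSO were MDM2 at -0.93 ± 0.11 and MDM4, an inhibitor of p53, at -0.64 ± 0.13. Of the 20 E2F and mitosis genes, a class that RB represses, 3 (15%) were higher and 0 lower in DKO with EZ. With DMSO 4 (20%) were higher and 0 lower. The medians were 0.60 with EZ and 0.88 with DMSO. Of the 20 ATF4 and CHOP targets, 1 (5%) was higher and 0 lower with EZ, and 0 and 2 (10%) with DMSO. The drug lowered 0 of those targets in DKO and 3 (15%) in WT, beside 0.445% and 1.07% of all tested genes. Their medians were -0.29 in DKO and -0.49 in WT. The drug raised 1 of the regulators in DKO cells, the kinase HIPK2, at 0.43 ± 0.10 (adjusted p = 0.0394). It raised 0 of them in WT cells. All tested genes gave 1.03% higher in DKO and 2.25% in WT. The part of the E2F and ATF4 lists in the values of the p53-activated genes was not tested.

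Annotated exons of 14 of the 33 genes overlap those of another gene, and the strand setting of the counting is not given in the sources used here, so their counts are uncertain. The widest overlaps were 42.6% of exon bases in TIGAR, 26.0% in TNFRSF10C, 23.8% in XPC, 19.1% in PHLDA3 and 16.2% in FBXO22. RPS27L also has a close paralog, RPS27, with which reads could be confused.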

How the data were processed

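Total RNA was sequenced after ribosomal RNA depletion (VAHTS Total RNA-seq kit), per the labels' protocols. The authors deposited raw counts per Ensembl gene for each library. The submitters' processing notes name STAR 2.7.3a and GRCh38 without a role; no label names the counter, the annotation or the strand setting. Of 60676 identifiers, 60357 had a name, and gene positions came from GENCODE annotation of GRCh38 for 58503.

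The deposited counts were filtered with filterByExpr (minimum count 10, minimum total 15), scaled by trimmed mean of M-values and fitted over all 16 libraries with edgeR 4.0.16 (glmQLFit, glmQLFTest) in R 4.3.3, without a replicate block, p adjusted by Benjamini-Hochberg. The biological coefficient of variation was 28.0%. Replicates are numbered in the labels, which do not say that they are separate cultures, so p-values may measure technical spread.

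Same-numbered EZ and DMSO libraries correlated in their deviations from group means (r 0.326 to 0.625 in WT, 0.403 to 0.664 in DKO). The numbers, taken from the labels, were therefore used to pair the drug comparison in the block. Different-numbered libraries had r of -0.45 to 0.511 in WT and -0.566 to 0.128 in DKO. WT DMSO replicate 2 had 0.511 with WT EZ replicate 3, above 0.326 with WT EZ replicate 2. Across genotypes same-numbered libraries had r from -0.13 to 0.67, and no pairing was used. The highest was between replicate 4 of WT DMSO and of DKO DMSO, and replicate 4 of the EZ groups had 0.523.

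The genes and lists were chosen with earlier results of these data known. Values in every library are given for genes past the threshold in a drug comparison, the 6 lowest and 3 highest called in DKO against WT with DMSO, and RB1; ZMAT3, GDF15 and CDKN1A were given in addition after their values were seen. The transcript of the other targeted gene is not reported here. Alternatives covered DESeq2 1.42.0, scaling, filters, blocks, library subsets and leaving out each library.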

Additional observations from a re-analysis of the deposited data

Results flagged for a closer look

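Within groups of 4 libraries, 17 of 136 gene and group combinations (12.5%, RB1 included) held a library whose gap to its nearest neighbour was large by Dixon's test at the 95% level. Chance gives about 1 in 20 for normal values. The genes share the same 16 libraries, so the combinations are not independent and the 2 shares cannot be compared as a test. WT EZ replicate 1 stood above the other WT EZ libraries for 6 genes. These were TP53INP1 (2199.9 CPM), PHLDA3 (49.5 CPM), ZMAT3 (279 CPM), DDB2 (27.2 CPM), CCNG1 (849 CPM) and SPATA18 (22.1 CPM). DKO DMSO replicate 4 stood above its group for BBC3 (2.16 CPM), TP53INP1 (572 CPM), SESN1 (62.6 CPM) and GDF15 (125 CPM). WT DMSO replicate 4 did so for SUSD6 (100.2 CPM), XPC (66.8 CPM), GADD45A (22.8 CPM) and GDF15 (537 CPM). DKO EZ replicate 1 was above its group for TRIM22 (2.87 CPM). TNFRSF10C was low in WT DMSO replicate 1 at 1.20 CPM, and EDA2R was high in WT EZ replicate 3 at 0.270 CPM, near the limit of detection.

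The drug effect on SESN1 differed between genotypes with the replicate block, at -0.74 on the log2 scale, DKO minus WT (adjusted p = 0.0489); EZ was above DMSO in 4 of 4 pairs in each genotype. Without the block the adjusted p was 1.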

How the results depend on the processing

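Over 28 alternatives, 48 called gene results gave 1299 values. Of these values, 1204 kept their direction and call, 95 kept the direction and lost the call, and 0 reversed. In all, 30 results passed in every alternative. Both the 48 and the 30 include RB1, CDKN1A and MDM2, which are not among the 33 genes. Each was called in DKO against WT under both treatments. Some genes that missed the threshold were called lower in DKO in some alternatives. Among them were GDF15 under both treatments, POLH and TP53INP1 with DMSO, and DDB2 with EZ. The replicate block within genotype raised the genes called higher with EZ to 2 in DKO and 5 in WT, and gave 1 gene lower in the test of the difference between drug effects. A block across genotypes, where same-numbered libraries had r from -0.13 to 0.67, moved no count over the 33 genes by over 1.5 times. Drug calls over all tested genes went up to 1104 in DKO and 1724 in WT, against 322 and 724 without that block. In libraries of low RN7SL1 share, where fewer samples remain, 0 genes were higher with EZ in DKO, where 13 of all tested genes were called in either direction. There, 12 were lower in DKO than WT with EZ and 11 with DMSO, beside 4.02% and 3.93% of all tested genes. With both treatments 9 were lower, and genes that lost the call had smaller fold changes than with all libraries. Without replicate 4 of both DMSO groups, chosen after seeing the data, the drug raised 3 genes in DKO and 5 in WT; calls over all tested genes also went up, to 905 in DKO and 1332 in WT. Leaving out 1 library at a time gave 0 to 1 genes higher with EZ in DKO (0 without DKO DMSO replicate 2) and 2 to 4 in WT (4 without WT DMSO replicate 4). It gave 16 to 21 genes lower in DKO than WT with EZ, 15 to 20 with DMSO and 15 to 18 with both, and 0 to 0 in the opposite directions and in the difference of drug effects. Calls over all tested genes in either direction moved too. For DKO against WT they ran from 3270 to 4776 with EZ and from 2957 to 4167 with DMSO. For EZ against DMSO they ran from 73 to 451 in DKO and from 304 to 1051 in WT.

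Scaling by library totals moved the median of all tested genes to 0.23 with EZ and 0.14 with DMSO in DKO against WT, and to -0.10 for EZ against DMSO in WT. Upper-quartile scaling moved it to 0.10 with EZ in DKO against WT. Counts set the precision of SPATA18, PHLDA3 and TRIM22 in DKO, and EDA2R could not be tested at this depth.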
